A study of Mus musculus with 8 samples.

Results

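Cluster C3 comprised the differentiated hormone-sensing cells of the post-involution (PI) mammary gland. Its members were the cells that the authors assigned to C3 and that passed quality control, and 2899 of them came from the PI mice, out of 25009 such cells of 8 mice. PI mouse 1 gave 412 of these cells and PI mouse 2 gave 2487. Another 12 and 5 cells of C3 came from the nulliparous (NP) mice and none from mice in gestation or lactation. All mice were C57BL/6N females, and each library was the gland of 1 mouse. The PI glands were taken 11 days after natural weaning and the NP glands at 8 weeks of age. Cells were sorted as live, EpCAM-positive and negative for CD31, CD45 and Ter119, and sequenced in droplets. Vaginal smears described by the study placed PI mouse 1 in diestrus, and PI mouse 2 and both NP mice in estrus. With 1 PI mouse per phase, cycle phase and mouse cannot be told apart.

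Luminal cells that carry the receptors for oestrogen, progesterone and prolactin sense systemic hormones and pass the signal to neighbouring cells through secreted ligands such as amphiregulin and Wnt4. Most cells that divide under these hormones are not the receptor-bearing cells themselves. Milk is made by a different luminal lineage, the secretory alveolar cells that arise from luminal progenitors, and involution removes most of these after weaning.

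C3 was described against 2 other luminal clusters of the same PI mice. C7, the luminal progenitors of the gland that has lactated, counted 824 and 1101 cells in PI mice 1 and 2. C1, the cluster the authors called hormone-sensing progenitors, counted 107 and 385 cells. Transcripts were counted by unique molecular identifiers (UMIs), short tags that let each captured transcript be counted once. UMIs were summed over the cells of a cluster within a mouse and scaled to counts per 1000000 UMIs (CPM). C3 held 3334145 UMIs in PI mouse 1 and 15535856 in PI mouse 2, so the values of mouse 2 have the smaller counting error. The median C3 cell held 7179 and 5638 UMIs and 2455 and 2056 genes. C7 cells were of similar depth (median 6483.5 and 5579 UMIs), while C1 cells were deeper (16314 and 11580). Mitochondrial transcripts made up a median of 0.904% and 0.760% of C3 UMIs. No C3 cell shared its barcode with a cell of another library, since the authors had left such cells out before clustering.

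The clusters were defined on these same counts, so differences between C3, C7 and C1 are descriptions of the clusters, and no test was applied to them. A gene was called higher or lower where it differed at least 2-fold in the same direction in each of the 2 mice, on the scale of log2(CPM + 1), and reached 20 CPM in the higher cluster of both.

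C3 made up 28.4% of the cells of PI mouse 1 (412 of 1449, exact 95% interval 26.1% to 30.8%) and 59.3% of those of PI mouse 2 (2487 of 4192, 57.8% to 60.8%). C7 went the other way, with 56.9% in mouse 1 and 26.3% in mouse 2. The intervals cover counting error only, and with 1 mouse per value the difference was not tested. C3 and C4, the differentiated hormone-sensing cluster found mainly in NP mice, together took 32.1% and 63.2% of luminal cells in the PI mice and 60.6% and 71.4% in the NP mice. PI mouse 1 lay below both NP mice and PI mouse 2 lay between them.

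The receptors and other markers of the hormone-sensing lineage set C3 apart from C7 in both mice. *Prlr*, the prolactin receptor, was at 2533 CPM in PI mouse 1 and 3079 CPM in PI mouse 2, against 72.1 and 92.5 CPM in C7. *Pgr*, the progesterone receptor, was at 138 and 203 CPM against 2.30 and 4.27 CPM. *Esr1*, the oestrogen receptor α, was at 74.98 and 47.8 CPM against 13.9 and 15.2 CPM. These 3 receptors were at least 2-fold higher in C3 than in C7 in both mice, as were 15.3% of all genes at the minimum level. *Cited1*, a transcriptional co-regulator that acts with the oestrogen receptor, was at 1550.0 and 894 CPM in C3 and at 14.7 and 8.79 CPM in C7. *Ptn*, which encodes the secreted growth factor pleiotrophin, was at 3009.8 and 4643 CPM against 19.3 and 33.1 CPM. *S100a6*, a calcium-binding protein, was at 8251 and 7218 CPM against 1259 and 1021 CPM. The 7 markers, which include *Bglap3* below, were chosen as markers of hormone-sensing cells, so their higher level in C3 follows from that choice. In all 7 the C3 values of both mice exceeded those of C7 at least 2-fold. Of the 5920 genes at the minimum level, 903 (15.3%) did so.

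**Figure D1:**
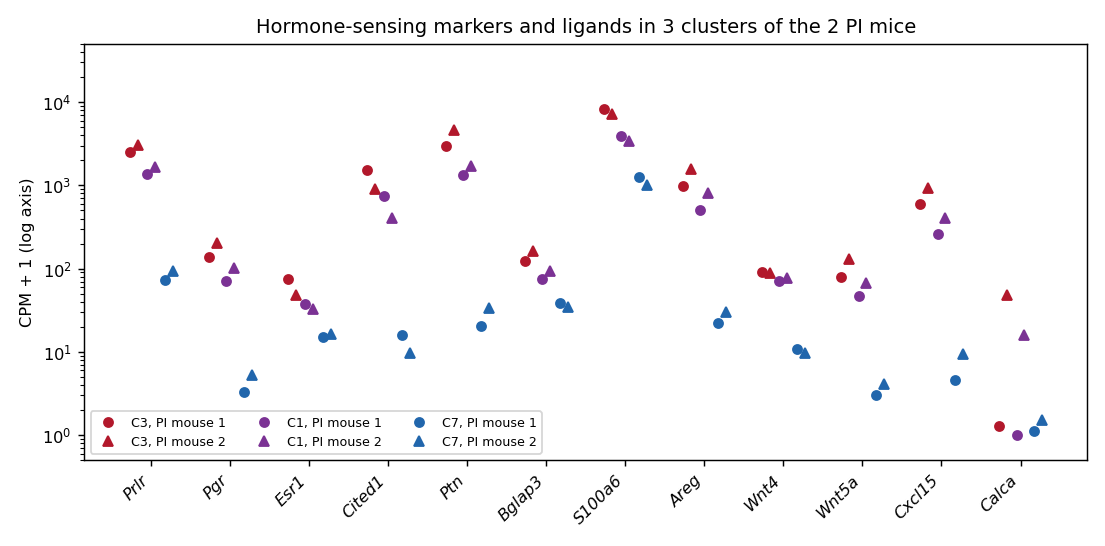
Level of 12 hormone-sensing markers and secreted ligands (CPM + 1, log axis) in C3, C1 and C7, with 1 point per cluster and PI mouse. C3 lies highest in each mouse for the 11 genes other than *Calca*, C1 lies between C3 and C7, and *Calca* is raised only in PI mouse 2.

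*Bglap3*, a gene of the osteocalcin family, was the weakest of the 5 markers used to describe the cluster here. It was at 122 and 163 CPM in C3 and at 38.01 and 34.01 CPM in C7, a difference of 1.66 on the log2 scale in the mouse with the smaller one. The share of cells with a UMI was almost equal in the 2 clusters at their own depth, 16.0% and 17.9% in C3 against 18.0% and 16.5% in C7. With each cell thinned to 2000 UMIs it was 10.4% (43 of 412 cells) and 12.8% (318 of 2487) in C3, and 5.83% and 5.90% in C7. Cells with a UMI then held a mean of 2.58 and 2.87 *Bglap3* UMIs in C3 and 1.21 and 1.34 in C7. The mean over positive cells was thus higher in C3, while single C7 cells reached 5 and 13 UMIs and single C3 cells 8 and 16. *Bglap* and *Bglap2* held at most 1 UMI in C3 of either mouse. Of all runs of 30 bases in the last 400 bases of the annotated *Bglap3* transcripts, 33.9% also occur in *Bglap* and 35.5% in *Bglap2*. Such runs do not tell these copies apart, so the level of each is uncertain.

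The receptors differed in how many cells showed them. At equal depth (2000 UMIs per cell) *Prlr* was detected in 96.1% of C3 cells of PI mouse 1 and 98.8% of PI mouse 2, against 11.4% and 12.4% of C7 cells. *Pgr* was detected in 18.9% and 33.3% of C3 cells against 0.364% and 0.363% of C7 cells. *Esr1* was detected in 13.6% and 9.29% against 2.55% and 3.18%. Without thinning the shares were 99.5% and 99.9% for *Prlr*, 56.3% and 64.9% for *Pgr*, and 41.7% and 25.1% for *Esr1*. Detection of *Esr1* was compared between cells with and without *Pgr*. Among cells with *Pgr*, 11.5% (9 of 78, exact 95% interval 5.41% to 20.8%) and 9.07% (75 of 827, 7.20% to 11.2%) also held *Esr1*. Among cells without *Pgr* these shares were 14.1% (47 of 334, 10.5% to 18.3%) and 9.40% (156 of 1660, 8.04% to 10.9%), and the intervals overlapped in both mice. At this depth a missing UMI does not show a missing transcript.

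The 5 markers have 11 promoter windows in RefSeq (GRCm38.p6, from 250 bases before to 50 after an annotated start). Each was searched on both strands for 5 motifs of factors that work in this lineage. These were the oestrogen response element (GGTCA and TGACC with 3 bases between them), the progesterone and glucocorticoid receptor core TGTTCT, the forkhead motif TGTTTAC, the STAT motif TTCNNNGAA and the GATA motif AGATAA. Of all 32851 windows in the table, 0.0700%, 19.0%, 3.65%, 8.30% and 11.2% hold these letters, in the same order. The windows of the progesterone receptor, of the ligand *Ptn* and of *Bglap3* at its outermost start are shown, as a receptor, a ligand and the marker that differed most from NP mice, with motif matches in capitals. *Pgr* lies on chromosome 9 (plus strand, 8899833 to 8968611), *Ptn* on chromosome 6 (minus strand, 36714929 to 36810220) and *Bglap3* on chromosome 3 (minus strand, 88368616 to 88372743). The *Pgr* window holds none of the 5 motifs, the *Ptn* window holds 1 core of the progesterone and glucocorticoid receptors on the opposite strand, and the *Bglap3* window holds the STAT motif, whose pattern matches on both strands at once. Among the windows not shown, a *Prlr* window (chr15:10223656-10223955) holds the STAT motif, the forkhead motif and the TGTTCT core. A further *Bglap3* window (chr3:88371430-88371729) holds the TGTTCT core, and the rest, with all those of *Cited1*, hold none of the 5 motifs. A match is a description of letters, not a binding site.
Pgr promoter, chr9:8899583-8899882, plus strand: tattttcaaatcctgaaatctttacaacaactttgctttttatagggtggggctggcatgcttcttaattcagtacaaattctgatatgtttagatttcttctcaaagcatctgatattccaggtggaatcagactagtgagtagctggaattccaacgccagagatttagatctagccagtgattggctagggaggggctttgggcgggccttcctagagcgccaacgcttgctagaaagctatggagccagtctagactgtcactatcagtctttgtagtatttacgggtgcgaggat
Ptn promoter, chr6:36810130-36810429, minus strand: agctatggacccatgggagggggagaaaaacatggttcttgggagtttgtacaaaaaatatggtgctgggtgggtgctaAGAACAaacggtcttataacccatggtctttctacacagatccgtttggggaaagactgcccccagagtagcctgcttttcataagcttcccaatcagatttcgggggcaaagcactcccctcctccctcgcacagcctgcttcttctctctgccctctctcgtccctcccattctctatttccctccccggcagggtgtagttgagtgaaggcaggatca
Bglap3 promoter, chr3:88372692-88372991, minus strand: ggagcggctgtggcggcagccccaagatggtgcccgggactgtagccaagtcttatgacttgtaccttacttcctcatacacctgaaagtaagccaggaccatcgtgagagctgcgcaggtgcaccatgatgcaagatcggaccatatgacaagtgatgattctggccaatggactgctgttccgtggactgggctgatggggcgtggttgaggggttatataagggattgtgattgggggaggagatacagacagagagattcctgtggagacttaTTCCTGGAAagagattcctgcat

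Among 17 hormone and nuclear receptors, 12 reached the minimum level, 4 were higher in C3 than in C7 and 3 lower, where 15.3% of all genes at that level were higher and 12.7% lower. Besides the 3 receptors above, *Nr3c2*, the mineralocorticoid receptor, was higher, at 25.5 and 23.6 CPM against 6.90 and 7.66 CPM. The 3 that were lower act in other signals. *Vdr*, the vitamin D receptor, was at 19.5 and 12.6 CPM in C3 and 122 and 113 CPM in C7. *Nr3c1*, the glucocorticoid receptor, was at 24.6 and 17.9 CPM against 76.7 and 114 CPM. *Igf1r*, the receptor of insulin-like growth factors, was at 2.40 and 1.87 CPM against 35.0 and 35.5 CPM. *Calcr* and *Oxtr*, the receptors of calcitonin and oxytocin, had no UMI in C3 of either mouse.

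Of 14 transcription factors linked to this lineage, 7 of the 10 at the minimum level were higher in C3 than in C7 (15.3% of all genes) and none was lower, with a median log2 difference of 2.08, against 0.0878 over all genes at that level. The study had already named *Runx1*, *Tox2*, *Bhlhe41* and *Msx2* for this lineage from other cells of the series, and *Cited1* is among the markers. The count thus follows in part from the choice of the list. *Foxa1*, a pioneer factor for the oestrogen receptor, was at 102 and 100.1 CPM against 13.9 and 16.4 CPM. *Msx2*, a homeobox factor, was at 149 and 140.1 CPM against 2.57 and 2.89 CPM. *Tbx3*, *Spdef*, *Runx1* and *Bhlhe41* were higher as well, in addition to *Cited1*. *Gata3*, which acts in both luminal lineages, was at 130 and 129 CPM in C3 and at 145 and 149 CPM in C7.

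Secreted ligands went both ways. Of 14 ligands, 9 reached the level, 5 were higher in C3 than in C7 and 2 lower, beside 15.3% and 12.7% of all genes. *Areg*, the EGF family ligand amphiregulin, was at 989 and 1595 CPM in C3 and at 21.5 and 29.1 CPM in C7. *Wnt4* was at 90.3 and 86.6 CPM against 9.87 and 8.79 CPM, and *Wnt5a* at 79.2 and 130 CPM against 2.03 and 3.14 CPM. *Cxcl15*, a chemokine, was at 595 and 922 CPM against 3.65 and 8.41 CPM. The ligands that were lower in C3 were *Fst* (follistatin) and *Fgf1*, at up to 3.35 and 7.20 CPM. *Tnfsf11*, the ligand RANKL that relays progesterone, had 0 UMIs in PI mouse 1 and 1 in PI mouse 2, a level at which its presence was not detectable. *Calca*, which encodes calcitonin and its related peptide, had 1 UMI in mouse 1 and 731 in mouse 2.

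In prolactin signalling, 2 of 7 genes at the level were higher in C3 and 2 were lower, counts too small to set against the 15.3% and 12.7% of all genes. *Socs2*, a feedback inhibitor of the pathway, was at 253 and 251 CPM in C3 and at 48.1 and 45.7 CPM in C7. *Stat5a*, the transcription factor that the receptor activates, was at 78.9 and 64.8 CPM against 41.7 and 34.4 CPM, which is less than 2-fold. The 2 lower genes were *Cish*, a further feedback inhibitor, and *Elf5*, which drives alveolar differentiation and stood at 6.00 and 7.40 CPM in C3 against 179 and 150.0 CPM in C7. Among 17 targets of oestrogen and progesterone, 11 reached the level, 4 were higher and 3 lower (15.3% and 12.7% of all genes), with a median of -0.26, against 0.0878 over all genes. *Stc2* was at 219 and 272 CPM against 16.1 and 13.2 CPM, while *Igfbp5*, a binding protein of insulin-like growth factors, was at 28.5 and 11.5 CPM against 2033 and 2022 CPM. *Myc* and *Nrip1* were the other 2 that were lower.

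Genes of milk secretion and of involution marked the opposite side. In all, 750 genes were lower in C3 than in C7, or 12.7% of those at the level. Among them were all 5 milk proteins at the level, all 9 of the milk fat genes, 10 of 12 luminal progenitor markers and 9 of 11 genes of involution and acute phase. The study named C7 by progenitor markers such as *Aldh1a3*, *Cd14* and *Kit*, so the count of these markers follows in part from that choice. *Csn2*, which encodes β-casein, was at 6.90 and 9.27 CPM in C3 and at 1296 and 1683 CPM in C7. *Csn3* (κ-casein) was at 33.6 and 26.6 CPM against 6626 and 6106 CPM. *Spp1* (osteopontin) had 8.10 and 10.7 CPM against 2036 and 2563 CPM, the largest difference by the mouse with the smaller one (-7.78 on the log2 scale). *Trf* (transferrin), *Ltf* (lactoferrin), *Lcn2* (lipocalin 2), *Wfdc18*, *Cck* and *Csn1s1* ranged from -7.69 to -7.05 by the same measure. *Car2* and *Aldh1a3* had 1 and 2 UMIs in C3 of PI mouse 1, so no fold is given for them. Milk protein transcripts together took 75.6 and 83.4 CPM of C3, against 152 and 229 CPM in the basal cluster C12 of the same mice. The C3 sums were thus below those of the basal cells, which rested on 27 and 53 cells, and the source of these transcripts was not tested.

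**Figure D2:**
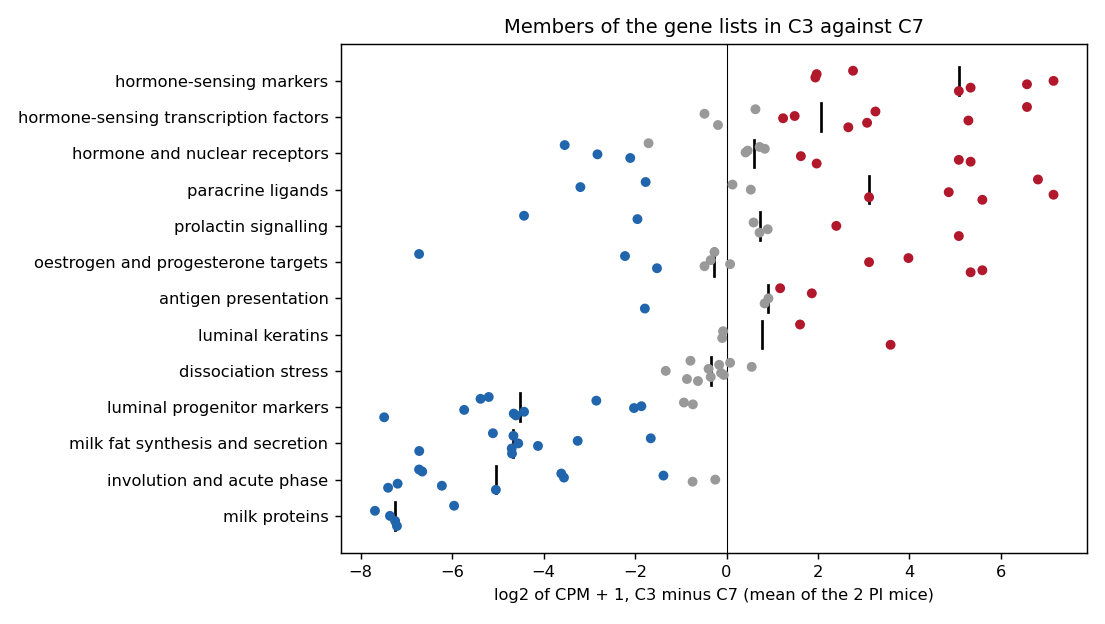
Difference C3 minus C7 on the scale of log2(CPM + 1), as the mean of the 2 PI mice, for each member of 13 gene lists that reached 20 CPM in the higher cluster of both mice. Red points are genes at least 2-fold higher in both mice, blue points at least 2-fold lower, grey points neither, and black bars are medians, from 5.08 in the hormone-sensing markers to -7.24 in the milk proteins.

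By the size of the difference to C7, C3 was led by *Ptn* (7.09 on the log2 scale in the mouse with the smaller difference). *Ido1*, which degrades tryptophan, followed at 318 and 871 CPM against 1.35 and 7.40 CPM. Next came *Cxcl15*, the tetraspanin *Tspan1*, *Cited1* and the fibrinogen chains *Fgb* and *Fgg*. *Fgb* was at 784 and 625 CPM in C3 and 4.46 and 6.02 CPM in C7, and *Fgg* at 969 and 580.3 CPM against 4.60 and 6.28 CPM. The transcript *AW112010*, the tight junction gene *Cldn10* and *Agtr1a*, the receptor of angiotensin II, completed the 10 largest, at 5.99 or above. *Fxyd2*, a regulatory subunit of the sodium pump, was named after its values were seen. It was detected at equal depth in 97.3% and 94.9% of C3 cells against 3.52% and 6.72% of C7 cells.

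In the remaining lists, 2 of 5 antigen presentation genes at the level were higher in C3 than in C7 and 1 was lower. Of 4 Notch pathway genes 1 was lower, and of 5 EGF family ligands and receptors 2 were higher and 2 lower. With 15.3% of all genes higher and 12.7% lower, nothing is read from these 3 small counts.

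Luminal keratins split by gene. *Krt7* was at 1641.5 and 2492 CPM in C3 against 155 and 181 CPM in C7, and *Krt19* at 7488 and 6470.3 CPM against 2277 and 2292 CPM. *Krt8* and *Krt18* were less than 2-fold apart, at 4716 and 5565 CPM in C3 against 5683 and 5268 CPM for *Krt8*. Among surface proteins used to sort mammary cells, *Prom1* (CD133) was at 257 and 241 CPM against 7.71 and 9.29 CPM. *Ly6a* (Sca-1) was at 212 and 400 CPM against 9.74 and 8.41 CPM. *Epcam*, the marker of the sort, was at 4057 and 3480 CPM in C3 and did not part the clusters.

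Markers of other cell types were at or near 0 in C3. The 10 basal markers summed to 34.5 and 47.0 CPM, against 15945 and 14201 CPM in basal C12, and *Krt14* was at 5.40 and 7.72 CPM. The 7 immune markers summed to 6.00 and 13.5 CPM, with 5 and 1 of them at 0, and *Ptprc* (CD45) was at 0 and 0.386 CPM. The 5 endothelial markers summed to 16.2 and 10.9 CPM, nearly all of it *Eng*, with *Pecam1* (CD31) at 0 and 0.451 CPM. Fibroblast markers summed to 3.30 and 13.3 CPM, pericyte markers to 0 and 2.38 CPM, and adipocyte markers to 0.300 and 3.28 CPM. Of 12 cell division genes, *Pcna* alone reached the level, and *Mki67* had 0 UMIs in PI mouse 1 and 0.515 CPM in mouse 2. Of 12 dissociation stress genes none of the 11 at the level was 2-fold apart from C7, and their sum was 8715 and 8301 CPM in C3 against 9874 and 10857 CPM in C7.

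Against C1 few genes were higher in C3. There were 72, or 1.27% of the 5660 genes at the level, while 345 (6.1%) were lower. After TMM scaling these counts were 134 and 307. In PI mouse 1 alone 219 genes were higher, and in PI mouse 2 alone 134. Of the 7 markers, *Cited1*, *Ptn* and *S100a6* were among the 72, and *Prlr*, *Pgr*, *Esr1* and *Bglap3* were higher in C3 but did not reach 2-fold in both mice. *Prlr* was at 1360 and 1643 CPM in C1. *Ido1* had the largest difference (1.53 on the log2 scale in the mouse with the smaller one), with 99.5 and 302 CPM in C1. After it came *Folr2*, a folate receptor, *Adck5*, *Phyh*, which acts on branched fatty acids, and *Tmem86a*. *Prss22*, the linker histone *Hist1h1c*, the stress protein *Nupr1*, *Cxcl15* and *Akr1b8* followed, down to 1.18. The genes lower in C3 than in C1 were led by those lower than in C7. *Trf*, at 42.6 and 42.7 CPM in C3, was at 4402 and 5550.2 CPM in C1, and *Csn3*, *Spp1*, *Cck*, *Csn2*, *Wfdc18*, *Lcn2*, *Csn1s1* and *Ltf* followed.

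For nearly all of these genes C1 lay between C3 and C7. Of the 1653 genes called between C3 and C7, the C1 level was between the other 2 levels in 1629 genes (98.5%) of PI mouse 1 and in 1648 (99.7%) of PI mouse 2. On a scale where C7 is 0 and C3 is 1, the median gene of C1 stood at 0.468 in mouse 1 (quartiles 0.375 and 0.550) and 0.478 in mouse 2 (0.407 and 0.549). C1 cells also held more UMIs per cell than C3 or C7 cells, by the medians given above. The part of cell pairs captured in 1 droplet in these values was not tested.

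In C3 against the highest of C1, C7 and basal C12 in each mouse, 62 genes led at least 2-fold in both mice, 0.948% of 6542. The 10 with the widest margin were *Ido1*, *Folr2*, *Adck5*, *Phyh*, *Tmem86a*, *Prss22*, *Hist1h1c*, *Nupr1*, *Cxcl15* and *Tspan1*. Of C1, C7 and C12, C1 was the highest for each of these 10 in both mice. C4, the other differentiated hormone-sensing cluster, took no part in this lead, so a lead here may be shared with C4. In C4 of the PI mice (40 and 88 cells) *Tspan1* was at 332 and 318 CPM against 454 and 429 CPM in C3. *Cxcl15* was at 417 and 582 CPM in C4 against 595 and 922 CPM in C3, and *Phyh* at 250 and 306 CPM in C4. *Phyh* was at 539 and 551 CPM in C3 and at 225 and 229 CPM in C1, and *Nupr1* at 6282 and 4984 CPM against 2714 and 2171 CPM. The count rose to 111 with TMM scaling, and to 177 in PI mouse 1 and 112 in PI mouse 2 taken alone. C12 rested on 27 and 53 cells, and in mouse 2 these also held 1360 CPM of *Ptn* against 448 CPM in mouse 1.

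Cells of C3 also differed among themselves. The 12 genes with the largest excess of variance over the mean, on cells thinned to 2000 UMIs and by the mouse with the smaller excess, were *Pcp4*, *Tmsb4x*, *Malat1*, *Mt1*, *Nupr1*, *Fgb*, *Ptn*, *Ly6d*, *Mt2*, *Actb*, *Areg* and *AW112010*. The variance was 29.7 and 17.3 times the mean for *Pcp4*, a calmodulin-binding peptide, while the median gene with a mean of at least 0.1 UMI per cell had 1.05 and 1.03. At equal relative spread this excess is larger for more abundant transcripts. *Malat1* had means of 104.5 and 91.9 UMIs per thinned cell, and *Tmsb4x* had 34.2 and 48.4. In these thinned cells *Pcp4* was found in 4.37% of C3 cells of PI mouse 1 and 12.02% of PI mouse 2. In mouse 2, 131 cells (5.27%) held 5 or more UMIs, with a median of 11 and a maximum of 49. In mouse 1 only 3 cells did, with up to 51. The 5% of cells richest in *Pcp4* held 84.0% of its UMIs in mouse 2, against 16.2% for *Ptn*. The other positive cells, 15 of 18 in mouse 1 and 168 of 299 in mouse 2, held 1 to 4 UMIs. Thinned C7 cells held at most 2 *Pcp4* UMIs.

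Pairs of these genes and of the markers were compared over the 412 and 2487 thinned cells of the 2 mice, as a description. The points share the same libraries and depth. *Mt1* and *Mt2*, metallothioneins that bind zinc and copper, went together (Pearson's r of log2(UMIs + 1) 0.725 and 0.656). *Fgb* and *Fgg* had r of 0.379 in mouse 2 and 0.319 in mouse 1. *Fxyd2* went with *Tmsb4x*, an actin-binding peptide (0.375 and 0.415), and both went against *Ptn*, with r of -0.202 and -0.285 for *Fxyd2* and -0.285 and -0.291 for *Tmsb4x*. *Areg*, detected in 47.6% and 64.5% of thinned C3 cells, was found in 48.7% of cells with *Pgr* against 47.3% of those without it in mouse 1, and in 63.1% against 65.1% in mouse 2, again with overlapping intervals.

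The C3 cells of the 2 PI mice were then compared. Of 5674 genes at 20 CPM or more in either mouse, 23 (0.405%) were at least 2-fold higher in PI mouse 1 and 37 (0.652%) in PI mouse 2. With TMM scaling, which moves the median gene by -0.19 on the log2 scale, these counts were 10 and 61. The balance turned with cells thinned to 2000 UMIs (83 and 52) and with 100 cells drawn per mouse (217 and 141). With 1 mouse on each side there was no test. Intervals are exact Poisson intervals of the counts, which leave out any spread between cells and between animals. They are therefore too narrow for genes such as *Pcp4*, whose variance over thinned C3 cells was 29.7 and 17.3 times the mean. Mouse 1 was in diestrus and mouse 2 in estrus.

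*Dpep2*, a membrane dipeptidase, was furthest apart, at 6.90 CPM (4.37 to 10.4) in PI mouse 1 and 81.7 CPM (77.3 to 86.4) in PI mouse 2. *Defb1*, an antimicrobial defensin, was at 8.70 and 93.1 CPM, and *Nrxn3*, a neurexin, at 8.10 and 65.8 CPM. C4 cells of the 2 NP mice, both in estrus, held 41.4 and 33.7 CPM of *Dpep2*, 144 and 154 CPM of *Defb1*, and 144 and 155 CPM of *Nrxn3*. For these 3 genes both NP values lay above PI mouse 1. *Aoc1*, which breaks down histamine and polyamines, was at 63.3 CPM (55.0 to 72.4) in mouse 1 and 473 CPM (462 to 484) in mouse 2, and at equal depth in 7.04% and 36.9% of cells. *Pcp4* was at 104 and 406 CPM, *Wfdc12* at 51.9 and 191.7 CPM, *Tmem86a* at 95.4 and 319 CPM and *Ido1* at 318 and 871 CPM. The *Pcp4* value of mouse 1 rested on few cells, since 18 of 412 thinned cells held a UMI and 3 held 5 or more. In NP mice *Aoc1* (10.2 and 7.31 CPM), *Pcp4* (16.7 and 8.62 CPM) and *Wfdc12* (3.16 and 9.72 CPM) were below both PI mice. *Calca* also belonged to the genes higher in mouse 2, and was at 134 and 46.6 CPM in the NP sums of C3 and C4.

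In the other direction *C1s1*, a complement protease, was at 91.8 CPM in PI mouse 1 and 23.3 CPM in PI mouse 2. *Fam25c* was at 819 and 236 CPM, and the haem oxygenase *Hmox1* at 150 and 51.3 CPM. The apolipoproteins *Apoe* (129 and 52.8 CPM) and *Apoc1* (286 and 119 CPM) and the cholesterol exporter *Abcg1* (72.3 and 30.7 CPM) were higher in mouse 1 as well, as were *Ly6k* and *Ttc36*. *Fam25c* was at 712 and 822 CPM in C4 of the NP mice, near PI mouse 1. Of the 37 genes higher in mouse 2, 29 reached the level in C1 and 17 of these were 2-fold higher in mouse 2 there too. In C7, 11 reached the level and 1 was. Of the 23 higher in mouse 1, 6 of 21 at the level in C1 and 0 of 13 in C7 were 2-fold higher in mouse 1. The background in C7 was 0.186% higher in mouse 1 and 0.224% in mouse 2, and in C1 0.497% and 0.703%. Among dissociation stress genes, *Egr1* (156 and 75.4 CPM) and *Hspa1b* (26.1 and 12.2 CPM) were higher in mouse 1, and their part in the other differences was not tested.

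**Figure D3:**
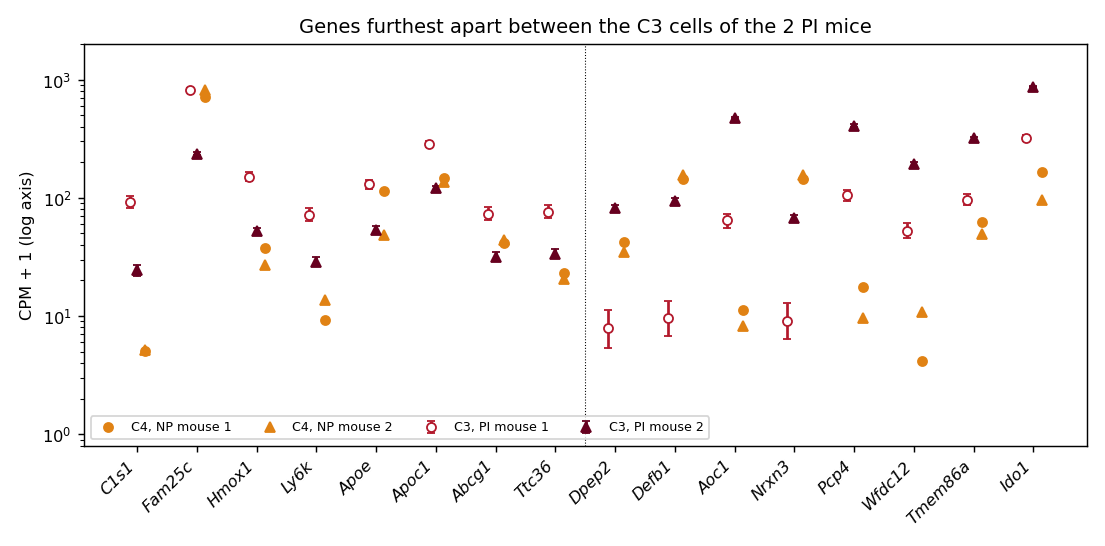
Level (CPM + 1, log axis) of the 8 genes furthest apart in each direction between the C3 cells of the 2 PI mice, with exact 95% Poisson intervals of the counts, beside C4 cells of the 2 NP mice. The intervals leave out the spread between cells and between animals. For *Dpep2*, *Defb1* and *Nrxn3* both NP values lie above PI mouse 1, whereas for *Aoc1*, *Pcp4* and *Wfdc12* both NP values lie below both PI mice.

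PI (n = 2) was compared with NP (n = 2) on the sums of C3 and C4 per mouse. The NP mice were 8 weeks old, and the age of the PI mice, which had passed gestation, lactation and weaning, is not given in the sources used here, so parity and age cannot be told apart. PI mouse 1 was in diestrus. Taking both clusters in both stages keeps the split between C3 and C4, which followed stage, out of the comparison. By the quasi-likelihood test of edgeR, after Benjamini-Hochberg adjustment and at 0.05, 916 of 11994 genes (7.64%) were higher in PI and 798 (6.65%) lower. Without NP mouse 1 the counts were 636 and 471, without NP mouse 2 they were 475 and 453, and with cells thinned to 2000 UMIs 484 and 415. NP cells were deeper, with a median of 10163 and 10309 UMIs in C4. The 10 basal markers, whose defining cells were not part of these sums, summed to 251 and 123 CPM in NP and to 47.1 and 58.4 CPM in PI, and 7 of the 10 tested fell. Their part in the genes that fell was not tested.

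The 3 main hormone receptors did not pass the test, by which 7.64% of all genes tested rose and 6.65% fell. *Prlr* was at 2276 and 2227 CPM in NP and 2484 and 3050 CPM in PI (log2 fold change 0.24, SE 0.22, adjusted p = 0.505, edgeR). *Pgr* was at 158 and 142 CPM in NP and 138 and 203 CPM in PI (0.15, SE 0.20, adjusted p = 0.671). *Esr1* was at 80.4 and 90.8 CPM in NP and 74.5 and 47.3 CPM in PI (-0.59, SE 0.19, adjusted p = 0.0572). Of 14 receptors tested, *Nr3c1* alone passed, and it no longer did without NP mouse 1, without NP mouse 2, without PI mouse 1, in DESeq2, with the filter at 0.1 UMI per cell or at equal depth.

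Of 9 EGF family ligands and receptors tested, *Areg* and *Btc* fell and none rose, where 7.64% of all genes tested rose and 6.65% fell. *Areg* was at 3218 and 3474 CPM in NP and 1034 and 1624 CPM in PI (-1.38, SE 0.26, adjusted p = 0.00552, edgeR). *Btc* (betacellulin) was at 67.0 and 60.2 CPM in NP and 9.86 and 20.5 CPM in PI (-1.97, SE 0.25, adjusted p = 0.000426). For both genes the mice of the stages did not overlap, which with 2 mice per stage also happens for genes that do not differ. *Wnt7b* and *Wnt4* fell by 0.85 and 0.54, the second with an adjusted p of 0.0413 that passed neither without PI mouse 1, without NP mouse 2 nor at equal depth, and *Wnt7b* did not pass without NP mouse 2. *Tnfsf11* was at 2.58 and 1.65 CPM in NP and had 0 and 1 UMI in PI (adjusted p = 0.00162). Of 12 ligands tested 4 fell and 1 rose, beside the same shares of all genes. The ligand that rose was *Cxcl15*, by 1.47 (SE 0.24), from 291 and 232 CPM to 579 and 911 CPM. *Ptn* was at 6698 and 5280.4 CPM in NP and 3105 and 4671 CPM in PI, with an adjusted p of 0.127.

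Downstream of the prolactin receptor, *Socs2* rose from 56.1 and 57.2 CPM in NP to 250.9 and 250.6 CPM in PI (2.09, SE 0.15, adjusted p = 1.17e-05, edgeR). *Elf5* passed with 3.13 and 2.54 CPM in NP and 5.48 and 7.35 CPM in PI (adjusted p = 0.0164), and lost the call in DESeq2, at equal depth, and without NP mouse 1, NP mouse 2 or PI mouse 2. The other 7 of the 9 genes tested did not pass. Among transcription factors 3 rose and 3 fell of 14, where 7.64% of all genes tested rose and 6.65% fell. *Msx2* rose from 72.4 and 62.6 to 142 and 138 CPM, and *Msx1* and *Cited1* rose too, *Cited1* by 0.88 (adjusted p = 0.0323; not without NP mouse 2 or PI mouse 1). *Tox2* (-1.49), *Bhlhe41* (-0.73) and *Hes1* (-0.78) fell, the last 2 not without NP mouse 2. *Prom1* rose from 83.0 and 69.9 to 250.4 and 238 CPM (1.62, SE 0.15, adjusted p = 5.63e-05), and *Ly6a* fell from 907 and 722 to 224 and 414 CPM (adjusted p = 0.00642; not in DESeq2). Both of these genes encode surface proteins used to sort luminal cells. The class I genes *H2-K1* and *H2-D1* were 2 of 8 antigen presentation genes that rose, by 0.88 and 0.89, and neither passed without NP mouse 2.

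The largest rises were in *Csn1s1*, *Bglap3*, *Aoc1*, *Emb*, *Tmprss6*, *Pcp4*, *Hepacam2* and *Wfdc12*. *Bglap3* went from 2.35 and 1.79 CPM in NP to 114 and 161 CPM in PI (6.02, SE 0.26, adjusted p = 2.93e-07, edgeR). The NP mice did transcribe it elsewhere, since their luminal progenitors (C6) held 100.5 and 112 CPM. C3 therefore stood above the progenitor cluster of its own mice, whereas NP cells stood below theirs. *Tmprss6*, a membrane serine protease, went from 3.84 and 3.98 to 112 and 103.5 CPM (4.72, SE 0.17, adjusted p = 9.31e-08). *Emb* (embigin, a partner of lactate transporters) went from 2.04 and 0.893 to 57.3 and 35.2 CPM. *Hepacam2* went from 2.58 and 1.65 to 44.9 and 37.1 CPM. *Aoc1*, *Pcp4* and *Wfdc12* rose by 4.93, 4.36 and 4.17, with the PI mice themselves far apart, as given above. *Pcp4* was found in only 18 of the 412 thinned C3 cells of PI mouse 1. *Fxyd2*, outside the naming rule, went from 647 and 499 CPM to 4411 and 3865 CPM (2.79, SE 0.22, adjusted p = 2.01e-05).

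*Csn1s1* (αS1-casein) rose from 0.470 and 0.412 to 27.7 and 43.5 CPM. Basal C12 cells of the PI mice held 44.8 and 70.5 CPM of it, above the PI level in each mouse. C12 had only 27 and 53 cells, with 111570 and 283862 UMIs over all genes. Its *Csn1s1* values thus rest on few UMIs, and the order is uncertain. The 4 milk proteins tested all rose, where 7.64% of all genes tested did. With the rest of their list they together reached 73.4 and 83.4 CPM, against 14.5 and 11.9 CPM in NP. The source of these transcripts was not tested.

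The largest falls were in *Gm17416*, *Sbp*, *Aldh1a3*, *Fermt1*, *Nme2*, *R3hdml*, *Wfdc18* and *Acta2*. *Gm17416* was at 99.5 and 53.8 CPM in NP and had no UMI in PI, and *Sbp* was at 161 and 168 CPM in NP and at 0 and 3.24 CPM in PI. *Fermt1* (kindlin-1, which activates integrins) went from 62.6 and 66.6 to 5.48 and 2.37 CPM (-4.40, SE 0.26, adjusted p = 2.3e-06, edgeR). *Aldh1a3*, a retinaldehyde dehydrogenase, went from 39.2 and 14.98 to 0.548 and 1.37 CPM. *R3hdml* went from 109 and 94.0 to 8.22 and 17.3 CPM. *Nme2*, a nucleoside diphosphate kinase, went from 73.8 and 54.7 to 3.56 and 10.8 CPM, and the luminal progenitors differed the same way, with 78.8 and 53.5 CPM in C6 of NP and 4.46 and 12.6 CPM in C7 of PI. Whether *Nme2* and *Gm17416* share reads with near-identical or overlapping genes was not examined, which leaves their levels uncertain. *Acta2* is a basal gene, and *Wfdc18* and *Aldh1a3* were higher in the luminal progenitors, at 2842 and 2083 CPM and 396 and 287 CPM in C7. In the NP mice *Aldh1a3* was detected, without thinning, in 94.6% and 89.9% of C6 cells. The part of transcripts from such cells in these falls was not tested.

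**Figure D4:**
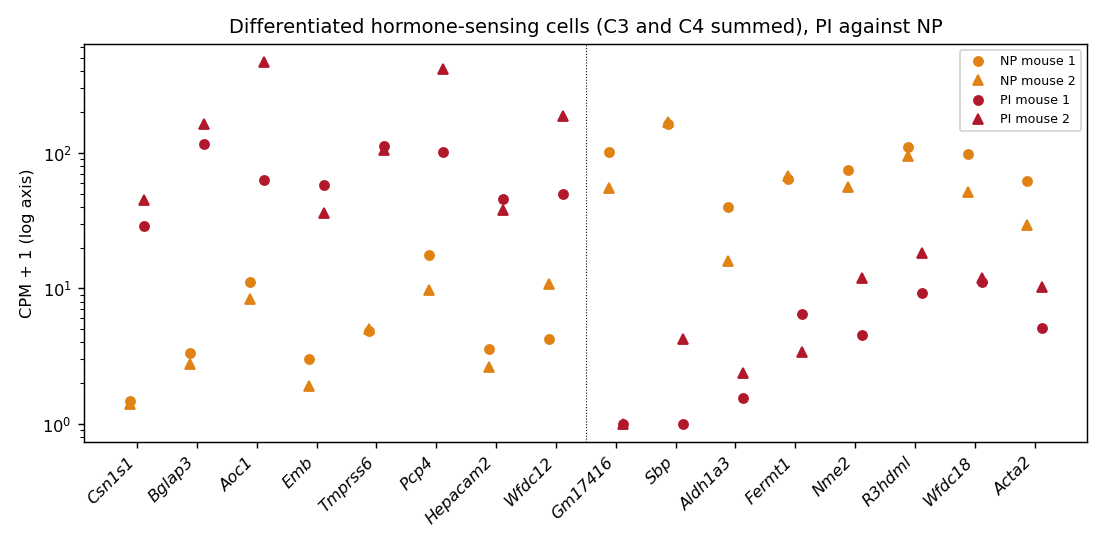
Level (CPM + 1, log axis) in the summed C3 and C4 cells of each NP and PI mouse, for the 8 largest rises (left) and the 8 largest falls (right) past the test. The 2 mice of a stage do not overlap with those of the other stage in any of the 16 genes, which the rule for naming them required, and *Aoc1* runs from 61.6 to 466 CPM between the PI mice.

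The 40 and 88 PI cells that the authors placed in C4 were part of these sums. They held *Tmprss6* at 63.2 and 57.5 CPM and *Bglap3* at 31.6 and 113 CPM, between the C3 values and those of the NP mice, and *Emb* at 44.3 and 36.4 CPM, near C3. With C3 alone in PI against C4 alone in NP the counts were 1021 and 902.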

How the data were processed

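The authors deposited raw UMI counts for each gene in each cell, obtained with Cell Ranger (STAR and mm10 per the labels) and not normalised between libraries. A table deposited by the authors gives each cell's library, quality flags, cluster and mitochondrial fraction of UMIs. Cells were joined by library and barcode. Of 25806 barcodes 791, found in more than 1 library, had been flagged and were left out, and 1 annotated cell had no barcode in the matrices. No doublet caller was run, and the authors had set 1 other cluster apart as doublets. UMIs were summed per mouse and cluster (Python 3.11.15, numpy 2.4.6). PI was compared with NP in edgeR 4.0.16 (R 4.3.3) with TMM scaling, filterByExpr (minimum count 10, minimum total 15) and the quasi-likelihood F-test, on 2 residual and 9.62 prior degrees of freedom. Share intervals are exact (Clopper-Pearson). Gene positions are from GENCODE M21 (GRCm38), matched by ID.

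Named genes were the 5 markers with *Esr1* and *S100a6*, members of 24 gene lists, and the genes with the largest differences: 10 per direction against C7 and C1 and 8 per direction between the PI mice (at least 50 CPM in the higher group), 8 per direction between PI and NP (past the test, at least 20 CPM in 1 stage, mice not overlapping), the 12 most variable within C3 and the 10 with the widest lead. Members and lists were chosen with earlier results of these data known. Alternatives were DESeq2 1.42.0, other filters, levels and pseudocounts, equal depth, 100 cells per cluster, a replicate block and each mouse left out.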

Additional observations from a re-analysis of the deposited data

How the results depend on the processing

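Counts of genes 2-fold apart followed the minimum level. With 5 CPM 1465 genes were higher and 1174 lower in C3 than in C7, and 111 and 626 than in C1. With 50 CPM these were 509, 447, 44 and 191, and 41 genes led in C3. TMM scaling gave 134 genes higher in C3 than in C1 and 111 that led in C3. Requiring the fold in 1 mouse alone gave 134 to 219 genes higher in C3 than in C1 and 112 to 177 that led, since fewer genes drop out when 1 mouse is asked. Between the C3 cells of the 2 PI mice, 23 genes were higher in mouse 1 and 37 in mouse 2. These became 10 and 61 with TMM, 11 and 23 at 50 CPM, 13 and 28 with a pseudocount of 5, 83 and 52 with thinned cells, and 217 and 141 with 100 cells drawn, which hold fewer UMIs. The C3 share of PI mouse 2 was 61.0% of luminal cells and 57.8% of all barcodes.

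For PI against NP, DESeq2 called 735 genes higher and 478 lower, the filter at 0.1 UMI per cell 574 and 496, thinned cells 484 and 415, and glmTreat for a log2 fold change above 1 at 0.01 only 78 and 43. Leaving out 1 mouse gave 475 to 1360 genes higher and 453 to 1098 lower, where the stage with 1 mouse is assumed to vary like the other. A replicate block gave 1042 and 1016 and changed no call of the 81 named genes that passed. The numbers do not pair the mice (correlation of deviations -0.0165), which share only a number. No called value changed sign under these alternatives. With 2 mice per stage, the test draws most of its degrees of freedom from the spread pooled over genes.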
